A study of Homo sapiens with 10 samples.

Results

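ZEB1 occupancy after 48 h of eribulin was set against that after 24 h, so the comparison covers the second day of exposure. It rests on 4 of the 10 samples of the series, the 2 libraries of each time, chosen by the labelled time alone, and on every consensus site of the study. The series profiled ZEB1 by CUT&RUN, in which an antibody directs a nuclease to the DNA around a bound protein and the released fragments are sequenced. The cells are a human breast cancer line labelled MDA, negative for the oestrogen receptor, the progesterone receptor and HER2. The 24 h and 48 h groups are the cells labelled MDA_ERI, treated with 300 nM eribulin for those times. They were read beside MDA_Parental cells without drug and cells treated for 72 h, all profiled with the ZEB1 antibody. The 2 IgG samples were not analysed here, so no antibody background was available. The labels do not name the MDA line further, and RNA was not measured, so the identity of the line could not be checked against expression markers.

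ZEB1 is a transcription factor with a cluster of zinc fingers near each end, which bind E-boxes of the CACCTG kind. It represses epithelial genes, among them the E-cadherin gene, and drives the epithelial-to-mesenchymal transition by which carcinoma cells lose their junctions and become motile. Eribulin blocks microtubule growth, arrests dividing cells in mitosis and is used against advanced breast cancer. The title of the series names the reverse, mesenchymal-to-epithelial change under treatment as its subject.

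The table held 52981 consensus sites, of which 46436 had enough counts to test and 41051 of those lay within 100 kb of the end of a protein-coding or miRNA gene, which named them. Site counts summed to 1886419 and 1799143 in the 24 h libraries and to 1346179 and 1380070 in the 48 h libraries. The 2 libraries of a time differed by less than sampling noise, with a chi-square per degree of freedom of 0.886 at 24 h and 0.928 at 48 h, against 4.52 to 4.69 for pairs across the times. Each time was therefore counted as 1 sample: p-values compare these libraries, not separate cultures, and folds carry exact 95% binomial intervals of the pooled counts, which cover counting error only. Levels are CPM, that is site counts brought to a common library total, scaled by the trimmed mean of M values (TMM), and "higher" or "lower" means an adjusted p under 0.05 in edgeR's quasi-likelihood test. This scale makes the typical site equal by design, with a median log2 change of -0.03 over all tested sites. Scaled instead to the genome-wide background floor that the deposited peak statistics imply, every log2 change is lower by about 0.49, and the site counts at 48 h were 76.5% of those at 24 h per unit of floor in the first libraries.

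Promoters showed most plainly which sites moved. The sequences shown are RefSeq promoter windows (GRCh38.p14, 250 bases before to 50 after a gene start, on the gene's strand) that overlap a site at least 2-fold higher or lower. The first 4 are the windows of protein-coding genes with the strongest 48 h signal among those higher and holding the E-box letters CACCTG or CAGGTG, chosen for those letters after the values were seen. The last 3 are the windows of protein-coding genes with the strongest 24 h signal among those lower, whatever their letters. Capitals mark the E-box letters and, in the lower windows, the letters TCTCGCGA or TCGCGAGA.
TMIE, chr3:46693528-46693827, + strand: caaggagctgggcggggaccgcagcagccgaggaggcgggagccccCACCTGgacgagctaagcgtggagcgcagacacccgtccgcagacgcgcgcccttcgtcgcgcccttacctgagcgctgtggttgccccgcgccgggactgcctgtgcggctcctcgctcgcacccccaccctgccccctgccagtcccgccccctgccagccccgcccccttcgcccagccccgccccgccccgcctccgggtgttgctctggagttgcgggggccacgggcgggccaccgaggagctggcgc
POLR1D, chr13:27621642-27621941, + strand: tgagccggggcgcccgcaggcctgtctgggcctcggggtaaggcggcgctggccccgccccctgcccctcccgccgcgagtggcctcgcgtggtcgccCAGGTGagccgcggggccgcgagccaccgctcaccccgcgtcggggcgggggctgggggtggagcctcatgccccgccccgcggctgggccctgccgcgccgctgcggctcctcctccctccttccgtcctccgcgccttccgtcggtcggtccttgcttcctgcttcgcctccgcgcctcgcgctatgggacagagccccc
GDF5, chr20:35454700-35454999, - strand: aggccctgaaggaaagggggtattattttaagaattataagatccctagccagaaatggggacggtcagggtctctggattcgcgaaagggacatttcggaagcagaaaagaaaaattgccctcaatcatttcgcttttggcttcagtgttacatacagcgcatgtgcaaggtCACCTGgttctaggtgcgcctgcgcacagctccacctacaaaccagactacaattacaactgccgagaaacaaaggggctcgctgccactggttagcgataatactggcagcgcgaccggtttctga
SFN, chr1:26862899-26863198, + strand: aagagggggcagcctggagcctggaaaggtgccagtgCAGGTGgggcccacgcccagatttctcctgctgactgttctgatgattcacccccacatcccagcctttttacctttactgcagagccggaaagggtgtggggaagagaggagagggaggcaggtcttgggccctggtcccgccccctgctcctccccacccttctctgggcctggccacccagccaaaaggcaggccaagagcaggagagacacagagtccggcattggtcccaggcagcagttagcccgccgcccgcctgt
NAA38, chr17:7857510-7857809, - strand: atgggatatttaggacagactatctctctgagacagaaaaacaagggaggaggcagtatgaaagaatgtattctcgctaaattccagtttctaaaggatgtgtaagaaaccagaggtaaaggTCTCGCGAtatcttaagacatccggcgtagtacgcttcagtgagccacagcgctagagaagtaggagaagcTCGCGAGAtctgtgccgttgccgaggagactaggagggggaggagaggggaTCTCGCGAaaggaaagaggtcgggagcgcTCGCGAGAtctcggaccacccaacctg
HUWE1, chrX:53684087-53684386, - strand: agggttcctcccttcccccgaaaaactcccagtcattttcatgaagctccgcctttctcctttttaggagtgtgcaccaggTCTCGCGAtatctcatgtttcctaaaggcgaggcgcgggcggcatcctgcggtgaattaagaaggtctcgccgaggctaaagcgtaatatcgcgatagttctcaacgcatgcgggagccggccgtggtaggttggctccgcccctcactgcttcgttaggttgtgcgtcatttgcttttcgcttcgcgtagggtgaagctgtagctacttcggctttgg
GPSM3, chr6:32195474-32195773, - strand: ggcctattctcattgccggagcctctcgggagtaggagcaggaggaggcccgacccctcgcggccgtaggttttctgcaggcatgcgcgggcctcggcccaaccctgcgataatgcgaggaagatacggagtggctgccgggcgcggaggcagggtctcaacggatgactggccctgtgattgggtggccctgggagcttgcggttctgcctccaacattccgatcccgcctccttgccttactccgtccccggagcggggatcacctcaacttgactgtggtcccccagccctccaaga
The SFN window belongs to 14-3-3 sigma, an epithelial inhibitor of the cell cycle, and its site gave 53.8 and 56.4 CPM at 24 h against 115 and 124 at 48 h, a log2 change of 1.12 (adjusted p = 7.01e-17). The site at TMIE, a gene of hair-cell hearing, overlaps the divergent ALS2CL promoter and went from 68.4 and 76.4 to 199 and 192 CPM. POLR1D encodes a subunit of RNA polymerases I and III, and its site went from 51.3 and 62.7 to 137 and 142 CPM. At GDF5, a bone morphogenetic protein family ligand, the site went from 61.9 and 66.9 to 140 and 122 CPM. The groups did not overlap at these 4 sites. Here and below, sites said not to overlap were picked by their change, their test or after values were seen, so this is description only. In the other direction the site at HUWE1, a ubiquitin ligase, fell from 130 and 115 to 46.1 and 35.4 CPM, with no overlap (log2 change -1.59, adjusted p = 4.66e-26). NAA38, an N-terminal acetyltransferase subunit, fell from 138 and 164 to 72.6 and 77.5 CPM. GPSM3, a regulator of G-protein signalling, fell from 131 and 111 to 49.1 and 62.0 CPM. Letters were not found at every strong promoter: the window of SPATC1L, which had the highest 48 h signal of the higher promoters (86.5 and 80.6 to 554 and 541 CPM), holds none of those searched.

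Promoters that gained ZEB1 signal held the E-box letters far more often than those that lost it. Searched on both strands, CACCTG or CAGGTG stood in 56.5% (230 of 407, 95% interval 51.5% to 61.4%) of the windows at sites at least 2-fold higher and in 4.95% (24 of 485, 3.20% to 7.27%) of those at sites at least 2-fold lower. These windows lie on 324 higher and 377 lower sites, so some share a site, while the intervals treat each window as independent. The share was 19.2% over the 12323 windows at any tested site and 20.6% over all 35116 windows. The AP-1 letters TGACTCA or TGAGTCA stood in 6.63% of the higher and 4.33% of the lower windows, and the TEAD letters GGAATG or CATTCC in 13.3% and 12.0%. Among letters added after the data were seen, CAGGTA or TACCTG stood in 21.9% of higher and 1.24% of lower windows, while the other palindromic E-boxes CAGCTG (16.7% and 16.9%) and CACGTG (10.3% and 9.48%) were about as common in both. Windows of the 2 classes were about equal in base composition, at 66.2% and 64.0% G and C.

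The difference was a general shift of E-box promoters, and not only one of the extremes. Of 8782 tested sites on a promoter window, the 1997 with the letters had a median log2 change of 0.31 and the 6785 without them one of -0.22; on the background-floor scale these medians were -0.18 and -0.70. With the letters, 28.7% were called higher and 4.16% lower; without them, 7.40% were higher and 19.9% lower, beside 16.8% and 14.4% of all tested sites. With the letters, the median level was 19.0 CPM at 24 h and 23.2 at 48 h, set beside 21.7 before treatment and 24.1 after 72 h. Without them it was 21.4 CPM at 24 h and 18.7 at 48 h, set beside 17.8 before treatment and 18.8 after 72 h, so the 2 kinds of promoter stood in the opposite order at 24 h and at 48 h. The split was there at every level of untreated signal: under 10 CPM, the medians were 0.31 with and -0.40 without the letters, and at 50 CPM or more 0.40 and 0.01. Independent of any scaling, E-box promoters took 21.1% and 21.2% of all promoter-site counts in the 24 h libraries and 26.7% and 26.6% in the 48 h libraries. The untreated libraries had 25.6% and 25.7%, and the 72 h libraries 27.9% each. Letters in a window are a description and do not show that ZEB1 is bound there.

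**Figure D1:**
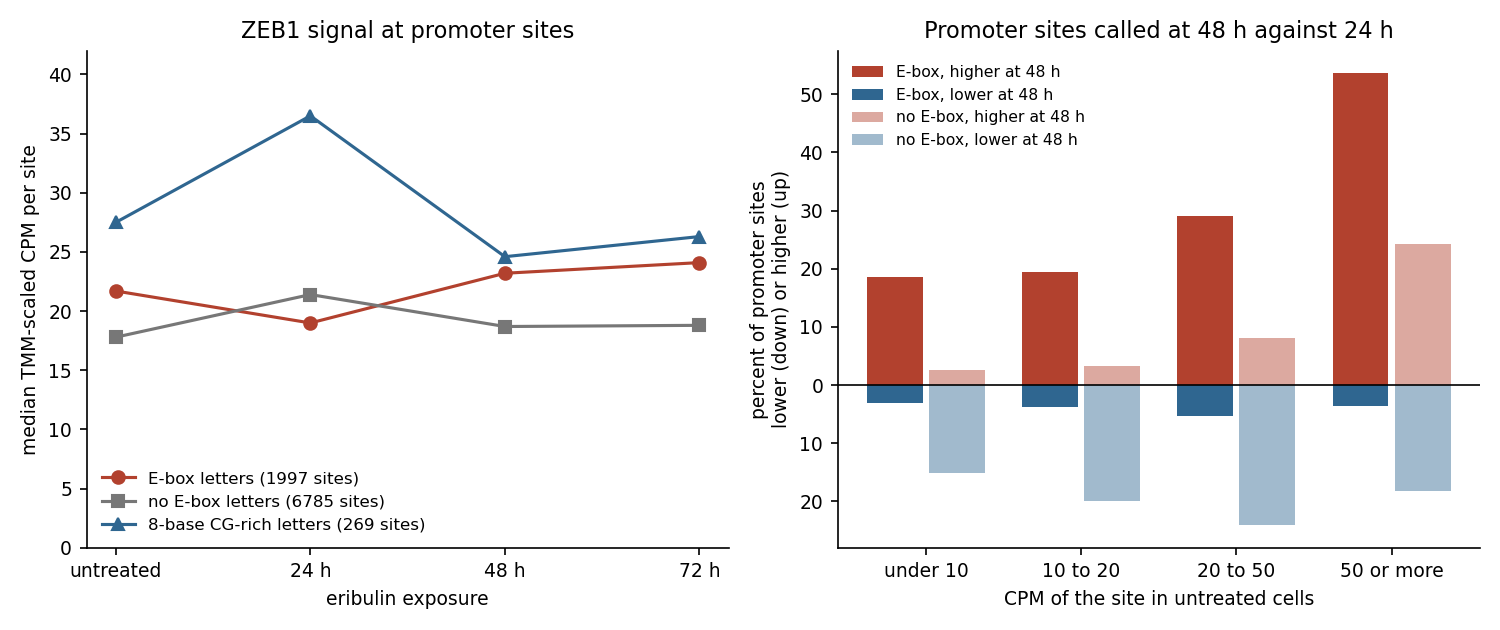
Left, median TMM-scaled CPM of promoter sites in untreated cells and at 24, 48 and 72 h, for sites whose window holds the E-box letters, lacks them, or holds the 8-base letters TCTCGCGA or TCGCGAGA. Right, percent of promoter sites called higher (up) or lower (down) at 48 h against 24 h, by untreated CPM. E-box promoters are lowest at 24 h, the other kinds highest there, and in each bin on the right more E-box promoters are higher than lower.

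Some of the windows that fell carried another sequence. NAA38 holds 4 copies of TCTCGCGA or its reverse complement TCGCGAGA, and HUWE1 holds 1; these letters were picked after the sequences had been seen. They stood in 8.45% (41 of 485) of the windows at sites at least 2-fold lower, in 0 of 407 at sites at least 2-fold higher, and in 2.99% at any tested site. Of the 269 promoter sites with them, 48.3% were called lower and 2.97% higher. Their median level went from 36.5 CPM at 24 h to 24.6 at 48 h (27.5 before treatment, 26.3 after 72 h), and their median log2 change was -0.54.

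Over all sites, 7791 (16.8%) were higher at 48 h and 6700 (14.4%) lower. At least 2-fold higher were 4608 (9.92%), and at least 2-fold lower were 3277 (7.06%). Of all calls 46.2% were lower on the TMM scale, 57.3% with total counts as the library size and 84.3% with the background floor, but 38.1% with factors from the sites of lowest counts, 31.1% with an assumed variation of 0.2 and 22.9% with DESeq2. DESeq2 called 3836 sites higher and 1139 lower. On the floor scale 70.4% of the sites at least 2-fold higher were still called higher. Those at least 2-fold lower stayed lower in 100% of cases, which follows from a scale that lowers every log2 change and is no check on them. With that assumed variation, a coefficient of variation between cultures that these libraries cannot measure, 3240 sites were at least 2-fold higher and 1486 lower. The count of lower sites was smaller with fewer libraries, at 4202 without the second 24 h library and 3589 and 3252 without the first or the second 48 h library.

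The levels that chose the sites at least 2-fold changed are given as a description, beside those of untreated cells and of 72 h. The median of the higher sites was 4.89 CPM at 24 h against 15.3 at 48 h, with 8.52 in untreated cells and 12.7 at 72 h. That of the lower sites was 13.4 CPM at 24 h against 5.23 at 48 h, with 6.18 in untreated cells and 6.56 at 72 h. The remaining tested sites stayed between 13.1 and 13.9 CPM. Lower sites were also narrower, with a median width of 196 bp against 226 bp for higher and 265 bp for other sites. None of the 454 tested sites over 1000 bp wide fell by 2-fold, and 15.9% of them rose by 2-fold.

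The deposited peak lists, 1 per time, also differed. The 24 h list held 33466 peaks over 8412504 bases, and the 48 h list 21816 over 5088286. Of the 24 h peaks 53.3% shared a base with a 48 h peak, and of the 48 h peaks 82.7% shared one with a 24 h peak. With the strongest 21816 peaks of each list, to make their lengths equal, the shares were 69.0% and 70.1%. A peak at 48 h without one at 24 h lay on 45.5% of the sites at least 2-fold higher, 0% of those at least 2-fold lower and 2.27% of the others. A peak at 24 h without one at 48 h lay on 83.8% of the sites at least 2-fold lower and 0.564% of those higher. Peaks and site classes come from the same samples, so these shares are no separate check on the changes. Sites with a peak at 48 h only of the 2 times lay within 5 Mb of a chromosome end in 31.9% of cases, against 10.1% of sites with a peak at 24 h only.

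Gains were concentrated toward the chromosome ends. Within 5 Mb of an end lay 33.0% of the sites at least 2-fold higher (95% interval 31.7% to 34.4%), 6.07% of those at least 2-fold lower (5.28% to 6.95%) and 10.6% of the other tested sites. In the outermost 1 Mb, 30.1% of sites rose by 2-fold and 2.74% fell by 2-fold. Over 20 Mb from an end, 6.66% rose and 8.48% fell. In shares of all site counts, which need no scaling, sites within 5 Mb took 11.2% in each 24 h library and 14.8% and 14.9% in the 48 h libraries. In the untreated libraries they took 11.5% and 11.4%. The E-box split of promoters was present near the ends, with medians of 0.35 with and -0.23 without the letters, and away from them (0.30 and -0.21).

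Gene density moved with the change as well. With 0 to 3 genes within 0.5 Mb either side, 4.23% of sites rose by 2-fold and 20.4% fell by 2-fold; with over 40 genes, 16.7% rose and 158 of 5261 fell. At 5 Mb or more from the ends the shares that rose went from 3.78% to 12.5% and those that fell from 20.4% to 3.10% over the same range. Among chromosomes the median log2 change ran from -0.29 on chromosome 4 and -0.27 on X to 0.23 on chromosome 22 and 0.24 on chromosome 21. Sites on promoter windows moved less than others: 3.69% rose by 2-fold and 4.29% fell, against 11.4% and 7.70% of sites off promoters. No input DNA was analysed here, so the part of DNA content in these shares was not tested.

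**Figure D2:**
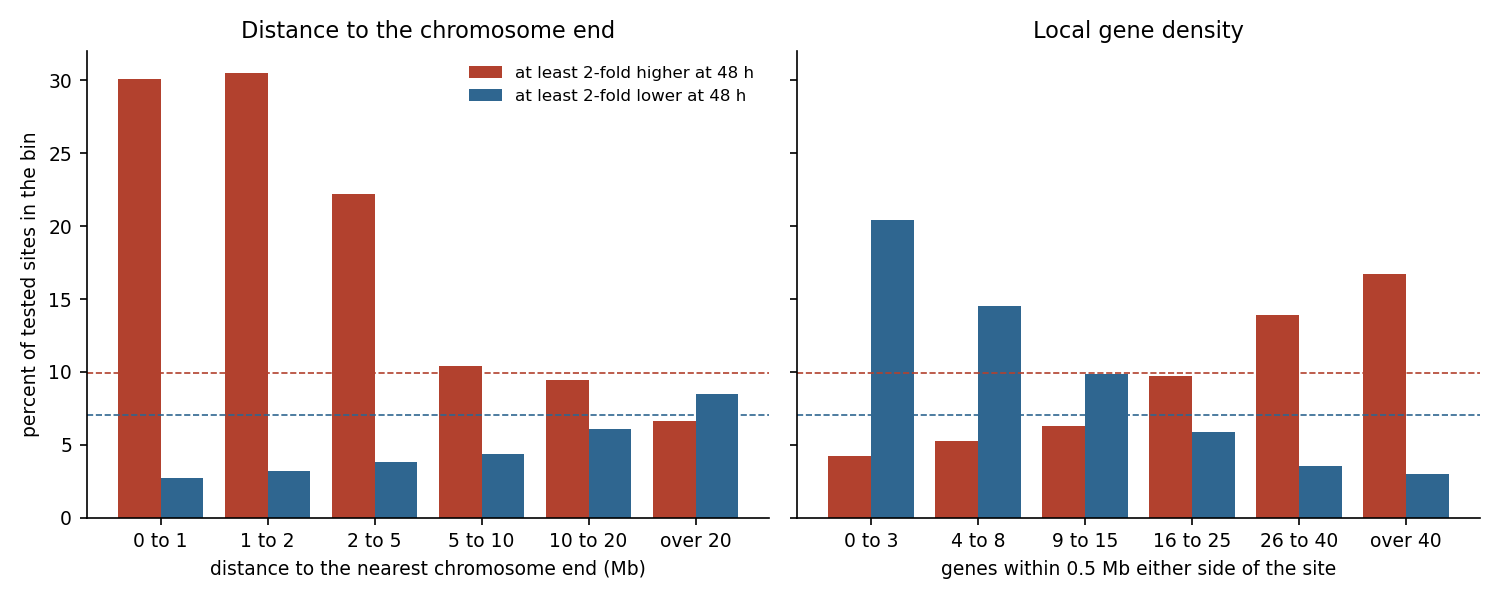
Percent of tested sites at least 2-fold higher or lower at 48 h against 24 h, by distance to the nearest chromosome end in Mb (left) and by the number of genes within 0.5 Mb either side (right). Dashed lines mark 9.92% and 7.06%, the shares over all tested sites; the outermost bins reach 30.1% and 30.5% higher, and the gene-poorest bin 20.4% lower.

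Of 1566 windows of 1 Mb with at least 10 tested sites, 18 had 50% or more of their sites at least 2-fold higher, and 17 of these lay within 5 Mb of a chromosome end. In 8 windows 50% or more were at least 2-fold lower, and 0 of these lay there. The window with the largest share higher spanned 1 to 2 Mb of chromosome 10, at WDR37, IDI1 and ADARB2, where 9 of 12 sites rose. The start of chromosome X, with the homeobox gene SHOX, followed with 11 of 16, and the window of CDH4 on chromosome 20 with 13 of 19. The window with the largest share lower spanned 176 to 177 Mb of chromosome 4, where 11 of 18 sites fell; it holds VEGFC, a growth factor for lymphatic vessels. A window of chromosome 13 with DLEU7 and MIR15A had 7 of 13 sites lower.

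The locus with most such sites was TTC34, at chr1:2652180-2777195. All 37 of its sites rose by at least 2-fold, with log2 changes from 2.19 to 2.96 and a median of 2.60. Their summed level was 1172 and 1169 CPM at 24 h and 7028 and 6986 CPM at 48 h, beside 619 in untreated cells and 3525 at 72 h. The groups were far apart, and every site had the order untreated, 24 h, 72 h, 48 h. The strongest site, chr1:2653627-2655811 in the gene body, went from 266 and 279 to 1589 and 1543 CPM. These 37 sites took 0.124% and 0.123% of site counts at 24 h and 0.691% and 0.686% at 48 h. Whether they are separate gains or a single signal of the whole region was not tested. Nor was any sharing of reads between similar copies of this sequence.

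**Figure D3:**
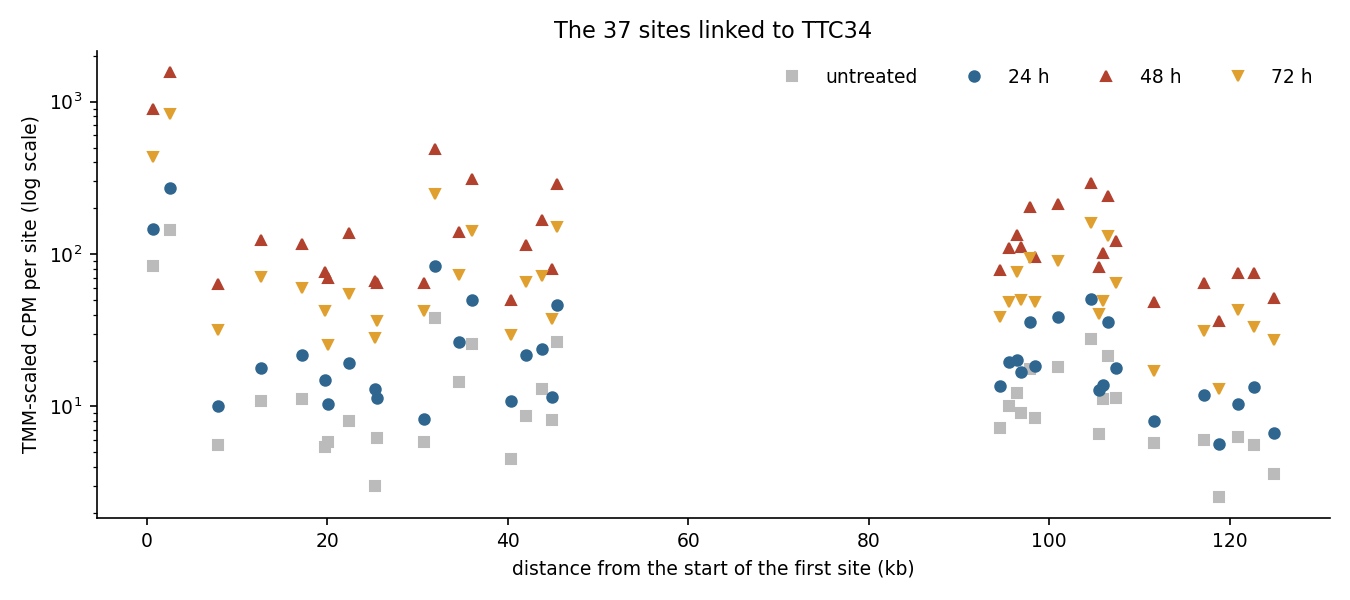
TMM-scaled CPM (log axis) of each of the 37 sites linked to TTC34 against its distance in kb from the start of the first site, in untreated cells and at 24, 48 and 72 h of eribulin. At every site the 48 h value is the highest; the sites' log2 changes from 24 h to 48 h lie between 2.19 and 2.96.

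Other loci moved as blocks. At least 3 sites 2-fold higher and none 2-fold lower were found at 240 of 5403 genes with 3 or more sites, and the reverse at 66. SPACA7, a sperm acrosome gene near the end of chromosome 13, had 18 of 23 sites at least 2-fold higher, and the summed level of all 23 went from 340 and 333 to 864 and 862 CPM. SMOC2, which encodes a matrix-associated calcium-binding protein, had 7 of 7 higher, from 34.7 and 44.8 to 241 and 246 CPM. KRT18, the partner of keratin 8 in simple epithelia, lies 52.9 Mb from a chromosome end and also had 7 of 7 higher. Its summed level was 123 and 125 CPM at 24 h, 353 and 338 at 48 h and 411 in untreated cells. At MYEOV, a gene of the 11q13 amplicon region, 8 of 20 sites rose by 2-fold, and all 20 together went from 734 and 743 to 1350 and 1331 CPM.

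Some of the highest levels lay in sequence with near-identical copies, where the counting could share reads between copies, so those values are uncertain. At DUX4, in the repeat array at the end of chromosome 4, the site chr4:190177608-190180006 went from 1245 and 1284 to 3628 and 3509 CPM. All 8 sites linked to FRG2B, near the matching array of chromosome 10, rose, from 610 and 571 to 1576 and 1534 CPM in sum. A site near MIR8078, chr18:107700-109403, went from 1389 and 1408 to 3902 and 3692 CPM.

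Of the 10 largest single gains at sites of above-median level, 8 lay within 5 Mb of a chromosome end, and 0 had a deposited 24 h peak. The site chr11:133932578-133933046 in the body of IGSF9B, an adhesion molecule of inhibitory synapses, went from 3.52 and 5.27 to 68.0 and 55.4 CPM (log2 change 3.80, interval 3.09 to 4.63, adjusted p = 1.26e-34). On the same chromosome arm, a site over 100 kb from B3GAT1, its nearest gene and an enzyme of HNK-1 carbohydrate synthesis, went from 5.03 and 8.96 to 89.2 and 94.5 CPM. A site as far from THBS2, which encodes a matrix glycoprotein, went from 4.53 and 8.43 to 73.3 and 72.3 CPM. PLXNB2, a semaphorin receptor, had a site that went from 7.04 and 4.22 to 55.9 and 60.5 CPM. At the zinc finger genes ZNF446 and ZNF835 the sites went from 6.54 and 3.69 to 54.4 and 62.7 CPM and from 3.02 and 4.74 to 40.1 and 36.9 CPM. In untreated cells these 6 sites lay between 3.32 and 11.3 CPM, the last at PLXNB2. A site in NCF4, a subunit of the phagocyte oxidase, lay 13.9 Mb from an end and went from 4.53 and 4.74 to 39.3 and 53.1 CPM.

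Sites of AP-1 and immediate early genes, which respond within minutes to growth factors and stress, were higher more often than lower on the TMM scale, whereas with the background floor 32 were higher and 37 lower. Of the 170 tested sites at 24 genes, 59 (34.7%) were higher and 13 (7.65%) lower, against 16.8% and 14.4% of all tested sites. Their median log2 change was 0.33 on the TMM scale and -0.16 with the background floor, where the median of all sites was -0.51. They took 0.544% and 0.533% of all site counts in the 24 h libraries, then 0.676% and 0.686% in the 48 h libraries. The untreated libraries had more, 0.933% and 0.938%. The site beside FOS, the partner of JUN in AP-1, at chr14:75283362-75284463, gave 9.56 and 15.3 CPM at 24 h and 62.7 and 69.4 at 48 h (log2 change 2.41, interval 1.95 to 2.91, adjusted p = 1.17e-27). The groups were well apart, and both lay under the 307 CPM of untreated cells. NR4A1, an orphan nuclear receptor, showed the same order at lower depth, with 1.51 and 4.74 CPM, then 15.9 and 17.0, and 62.3 in untreated cells. EGR1, a zinc finger factor, had 79.5 and 81.2 CPM, then 152 and 165, and 601 in untreated cells. These 3 sites were chosen, like those of ATF3, FOSB, CCN2, CDH1, DSP, CXCL8 and CCL20, after values were seen. The FOS site had 12.4 of 175 CPM over 11 FOS sites at 24 h, and 307 of 920 in untreated cells. The NR4A1 site had 3.09 of 97.0 CPM over 8 sites at 24 h, and 62.3 of 222 in untreated cells. Since untreated levels could have guided the choice, their standing above those of 48 h is description only.

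Other immediate early sites passed their untreated level at 48 h. The site near KLF6, a zinc finger transcription factor, chr10:3810075-3810569, went from 150 and 140 to 324 and 365 CPM, beside 205 in untreated cells (log2 change 1.24, adjusted p = 3.20e-46). KLF6 had 13 higher and 1 lower of 26 sites, and the site named here lies 3.81 Mb from a chromosome end. Without sites within 5 Mb of an end, 46 of 144 sites of the list were higher and 12 lower. A distant JUN site, chr1:58881369-58881837, went from 54.8 and 62.7 to 165 and 168 CPM, beside 134. The main ATF3 site did not pass the test, at 77.5 and 75.9 CPM against 78.6 and 77.5; on the floor scale its log2 change was -0.46. FOSB had 61.9 and 56.4 CPM against 86.2 and 84.9 (log2 change 0.53, adjusted p = 0.000742), which fell to 0.04 (adjusted p = 0.824) on the floor scale. JUNB, JUND, EGR2, EGR3, IER5 and NR4A3, other members of the same families, had 0 higher sites.

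Epithelial junction and polarity genes, which include the E-cadherin gene that ZEB1 represses, had 75 of 250 sites higher and 13 lower, against 16.8% and 14.4% of all tested sites; with the background floor 38 were higher and 56 lower. The median log2 change was 0.39 on the TMM scale and -0.09 with the background floor, against -0.03 and -0.51 over all sites. Near chromosome ends lay 44 of the 250; without them 61 of 206 were higher and 10 lower. The list took 0.473% and 0.481% of site counts at 24 h, 0.613% in each 48 h library, and 0.654% and 0.646% in untreated cells. The site with the smallest p was at PARD6B, a scaffold of the apical polarity complex, chr20:50730664-50731843 at the gene end, with 203 and 225 CPM at 24 h and 492 and 469 at 48 h (log2 change 1.17, interval 1.04 to 1.30, adjusted p = 2.22e-51). Its groups did not overlap, and untreated cells had 479 CPM, the 48 h level. PKP3, a desmosomal plaque protein, rose from 27.7 and 38.5 to 129 and 128 CPM, above the 33.0 of untreated cells. That site lies 0.398 Mb from a chromosome end. In the body of CDH1, the E-cadherin gene, the site chr16:68741850-68742072 went from 7.55 and 4.22 to 15.9 and 16.2 CPM (adjusted p = 0.000606), beside 24.9 in untreated cells. A site near DSP, the desmoplakin gene, went from 73.9 and 72.2 to 129 and 131 CPM, a call that the assumed variation of 0.2 ended (adjusted p = 0.0648). CLDN1 and CLDN7, tight junction claudins, each had 1 lower and 0 higher sites.

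Keratin genes of simple epithelia had several higher sites: KRT8 had 4 of 5 sites higher, KRT18 7 of 7, KRT7 4 of 10 and KRT19 2 of 5, with 0 lower at any of them. PRKCZ, the atypical protein kinase C of the polarity complex, had 5 of 9 higher, and CLDN4 3 of 7. PRKCZ has sites in the 1 Mb window of chromosome 1 that also holds TTC34 sites, where 48 of 72 sites rose by at least 2-fold. Among epithelial regulators, 15 of 103 sites (14.6%) were higher and 9 (8.74%) lower, against 16.8% and 14.4% of all tested sites; with the background floor 8 were higher and 38 lower. EHF, an epithelial ETS factor, had 4 of 13 sites lower and 0 higher, and KLF5, TP63 and GRHL3 each had 1 lower and 0 higher. In the other direction, a site near OVOL1, a repressor of the mesenchymal state, went from 7.55 and 3.69 to 34.8 and 39.9 CPM, beside 6.49 in untreated cells. LSR, a tricellular junction receptor, had a site at the gene end that went from 91.0 and 89.1 to 161 and 172 CPM. ELF3, another ETS factor of this list, had 4 of 10 sites higher and 0 lower, and GRHL1 had 3 of 5 higher and 1 lower.

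Factors of the epithelial-to-mesenchymal transition had 26 of 115 sites (22.6%) higher and 9 (7.83%) lower, against 16.8% and 14.4% of all tested sites; with the background floor 11 were higher and 36 lower. ZEB1's own gene was among them: the site over its start, chr10:31318227-31319092, gave 53.3 and 48.0 CPM at 24 h and 116 and 103 at 48 h (log2 change 1.10, interval 0.84 to 1.37, adjusted p = 3.65e-15). The groups did not overlap, and untreated cells had 72.0 CPM. A site near ETS2 went from 91.5 and 90.1 to 172 and 164 CPM, and SNAI1, the snail repressor, had 4 of 9 sites higher and 0 lower. Mesenchymal effectors were split, with 43 of 299 sites (14.4%) higher and 49 (16.4%) lower, near the shares of all tested sites. At 2-fold 15 (5.02%) were higher and 30 (10.0%) lower, against 9.92% and 7.06% of all tested sites. With the background floor 16 were higher and 127 lower, and with DESeq2 27 and 9. COL5A2, a fibrillar collagen chain, had 3 of 5 sites lower and ITGA2, a collagen receptor subunit, 5 of 9, with 0 higher at either. COL6A1, on the end of chromosome 21, had 3 of 4 higher, and LAMB3, a laminin-332 chain, 4 of 7.

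**Figure D4:**
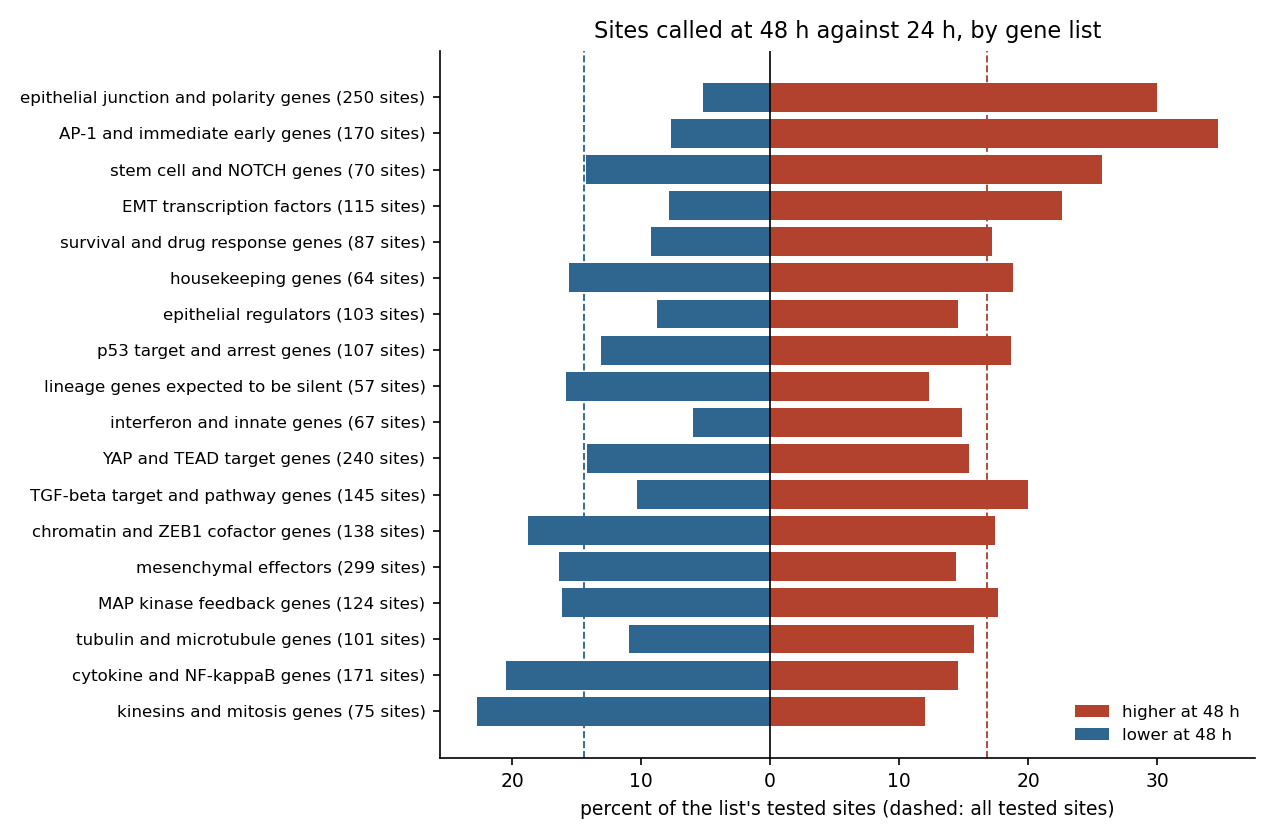
Percent of the tested sites of each of 18 gene lists that were higher (right) or lower (left) at 48 h against 24 h on the TMM scale, ordered by median log2 change; dashed lines mark 16.8% and 14.4%, the shares over all tested sites. AP-1 and epithelial junction genes have 59 of 170 and 75 of 250 sites higher; with the background floor the medians of both are below 0, at -0.16 and -0.09.

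The balance of calls within a list turned on the setting. With the background floor each of the 18 lists had more lower than higher sites, and with DESeq2 each had more higher than lower. TGF-beta genes had 29 of 145 sites higher and 15 lower, but 12 and 60 with the background floor. Among them PMEPA1, an inhibitor of the pathway, had 6 of 14 higher, led by chr20:57693007-57693543 (40.2 and 46.9 to 135 and 157 CPM). ID1, an inhibitor of helix-loop-helix factors, had 3 of 4 higher, whereas TGFBI, a matrix protein induced by the pathway, had 5 of 7 lower. YAP and TEAD targets had 37 of 240 (15.4%) higher and 34 (14.2%) lower, near the shares of all tested sites. The CCN2 site went from 6.04 and 6.85 to 8.31 and 13.3 CPM without passing the test (adjusted p = 0.133), beside 76.8 in untreated cells. WWC1, a Hippo pathway scaffold, had 13 of 22 higher and 0 lower. MAP kinase feedback genes had 22 of 124 (17.7%) higher and 20 (16.1%) lower. Genes of p53 and arrest had 20 of 107 (18.7%) higher and 14 (13.1%) lower. In them, CDKN1A, the cyclin-dependent kinase inhibitor p21, had a site in its body at chr6:36682555-36683041 that went from 25.2 and 16.3 to 78.6 and 80.4 CPM, beside 46.5 in untreated cells.

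Genes close to the drug's target did not move as a block. Tubulin and microtubule genes had 16 of 101 sites (15.8%) higher and 11 (10.9%) lower. Over all tested sites 16.8% were higher and 14.4% lower, the shares against which each list here is to be read. A site in CEP72 nearest TPPP, a tubulin polymerisation factor, rose from 16.1 and 13.7 to 117 and 130 CPM, and it lies 0.649 Mb from a chromosome end. Kinesins and mitosis genes had 9 of 75 (12.0%) higher and 17 (22.7%) lower, with a median log2 change of -0.31. With DESeq2 these counts were 5 and 1, and with the assumed variation 5 and 2. KIF18A, a motor that limits chromosome movement, had 3 of 6 sites lower, while KIF1A and KIF26A, at 1.37 and 2.65 Mb from chromosome ends, had higher sites. Without sites near the ends 4 of 65 were higher and 16 lower. Stem cell and NOTCH genes had 18 of 70 (25.7%) higher and 10 (14.3%) lower. Without the ends 7 of their 45 sites were higher and 9 lower. Survival genes had 15 of 87 (17.2%) higher and 8 (9.20%) lower, MCL1 among them with 22.1 and 25.8 CPM against 51.4 and 56.8. Interferon genes had 10 of 67 (14.9%) higher and 4 (5.97%) lower, and chromatin and cofactor genes 24 of 138 (17.4%) and 26 (18.8%). Housekeeping genes had 12 of 64 (18.8%) and 10 (15.6%), and lineage genes expected to be silent 7 of 57 (12.3%) and 9 (15.8%).

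Cytokine and NF-kappaB genes had 35 of 171 sites (20.5%) lower and 25 (14.6%) higher, where all tested sites had 14.4% lower and 16.8% higher. At 2-fold 23 (13.5%) were lower and 10 (5.85%) higher, against 7.06% and 9.92% of all tested sites. DESeq2 turned the order of the calls of any size, with 13 lower and 16 higher. Of the sites linked within 5 kb 13 were lower and 12 higher. CXCL8, the interleukin-8 gene, had 7 of 8 sites lower and 0 higher. A site at the CXCL8 gene end, chr4:73744279-73744585, had 60.8 CPM in untreated cells and 35.4 at 72 h. It gave 29.2 and 25.8 CPM at 24 h and 15.9 and 14.0 at 48 h (log2 change -0.88, adjusted p = 0.00365). That call was lost without the second 48 h library (adjusted p = 0.0866), with DESeq2 (adjusted p = 0.0671), and with the assumed variation of 0.2 (adjusted p = 0.131). CCL20, a lymphocyte attractant, fell from 124 and 119 to 58.2 and 62.7 CPM, with untreated cells at 66.7. CXCL3 had 2 of 3 sites lower, and the single site of RELB, an NF-kappaB subunit, was lower (41.2 to 14.2 CPM, pooled). In the other direction, sites near IL24 (21.1 and 26.4 to 66.5 and 64.9 CPM) and AREG, an EGF receptor ligand (45.3 and 41.1 to 108 and 83.4 CPM), rose. AREG itself was split, with 4 of 10 sites higher and 5 lower, and IL24 had 1 of 4 higher and 0 lower.

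The largest losses described here were at sites whose 24 h level lay above that of untreated cells. The site chr20:63941895-63942366, at the end of MIR647 in the body of UCKL1, gave 51.3 and 54.8 CPM at 24 h and 12.8 and 8.12 at 48 h (log2 change -2.34, interval -2.97 to -1.77, adjusted p = 1.57e-18). Its groups did not overlap, and it had 2.11 CPM in untreated cells. The site nearest BCAS1, amplified in some breast cancers, fell from 77.5 and 74.8 to 18.9 and 19.9 CPM. Near CD47, the cell surface signal against phagocytosis, a site fell from 31.2 and 34.8 to 9.82 and 7.38 CPM. SPRY2, a feedback inhibitor of receptor kinases, was the nearest gene of a site that fell from 28.2 and 25.3 to 5.29 and 8.12 CPM. This last site lies more than 100 kb from the gene named. In untreated cells the sites nearest CD47 and SPRY2 had 20.4 and 4.68 CPM.

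Genes that lost several sites were fewer. All 5 sites of DLEU7 fell by at least 2-fold, from 65.4 and 71.7 to 31.7 and 23.6 CPM in sum. All 4 of HUWE1 did so too, from 195 and 178 to 71.0 and 62.0 CPM, and MTHFD2L, a mitochondrial folate enzyme, lost 5 of 12. AHR, the receptor for dioxin and tryptophan metabolites, had 7 of 11 sites lower and 1 higher. FMN1, an actin nucleator, had 5 of 19 sites at least 2-fold lower. A site at the end of RBM39, a splicing factor, was among the strongest of the lower sites and went from 134 and 124 to 65.0 and 59.0 CPM, beside 84.6 in untreated cells.

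**Figure D5:**
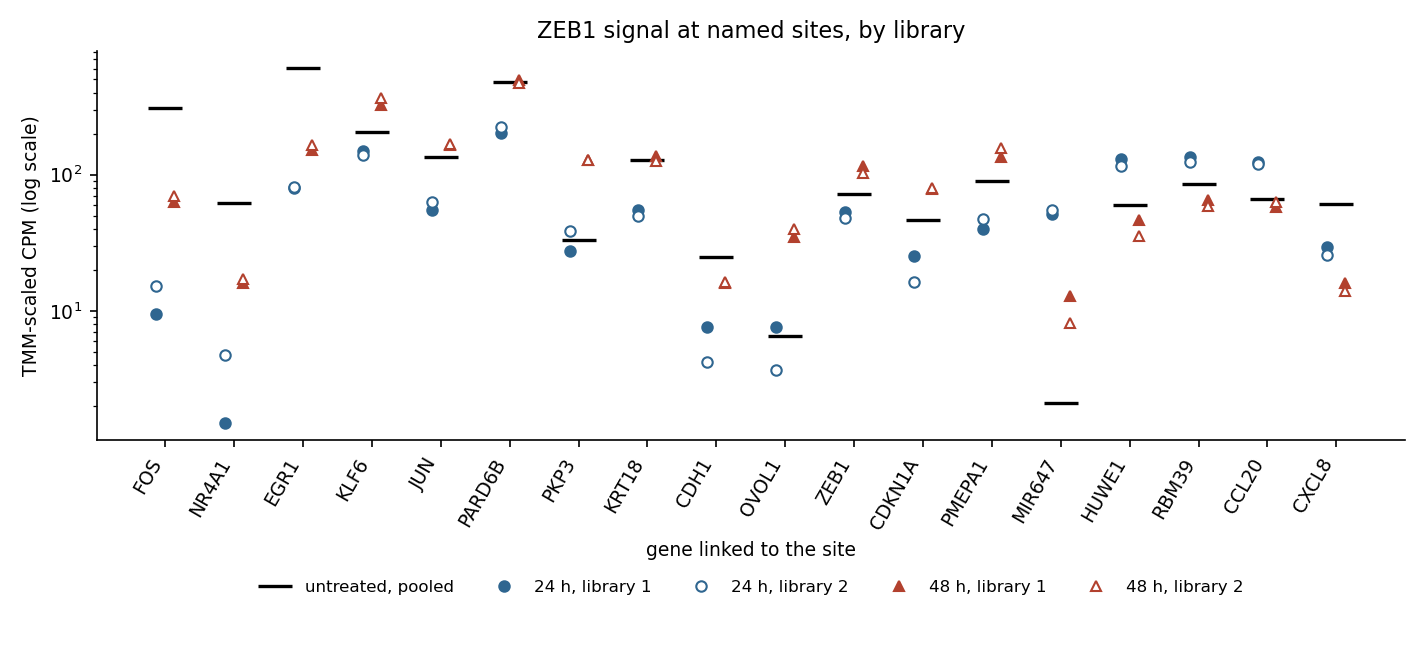
TMM-scaled CPM (log axis) at 18 sites named in the text, with both 24 h and both 48 h libraries as points and the pooled untreated level as a bar. The libraries of the 2 times do not overlap at any of these sites, which were picked by their change, their test or after values were seen. FOS, NR4A1 and EGR1 rise toward, and stay under, their untreated 307, 62.3 and 601 CPM, while MIR647 falls from 24 h to 48 h with 2.11 CPM untreated.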

How the data were processed

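CUT&RUN for ZEB1 was analysed from the deposited table of counts per consensus site (2 libraries each of untreated, 24 h, 48 h and 72 h cells) and from 1 deposited peak list per condition. Counts are whole numbers, not normalized. The peak lists give the authors' fold enrichment, a ratio to local background, with its −log10 p and −log10 q and the summit offset; their peak names carry the name of the first library. For the steps before counting, the submitters' processing notes list, with no roles, hg38, the read tools bcl2fastq 2.20.0.422 and cutadapt 2.4, and the aligner Bowtie2 2.2.6. MACS2 2.1.1, featureCounts, Picard, deepTools and bedtools 2.30.0 are listed too. The unit counted, read or fragment, is not given in the sources used here, and the labels name both Tn5 fragmentation and a nuclease kit.

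All 8 ZEB1 libraries were fitted together with edgeR 4.0.16 (TMM factors, filterByExpr, robust quasi-likelihood, contrast 48 h minus 24 h, Benjamini-Hochberg over 46436 sites), tested on simulated data. Site totals per library ran from 1346179 to 1886419 for the 2 times compared. Labels do not say whether libraries came from separate cultures; pairs were within sampling noise and counted as 1 sample, so no test against culture variation was possible. Sites took the nearest protein-coding or miRNA gene end within 100 kb (RefSeq, GRCh38.p14). Chromosome ends were the first base and the last annotated or called base. The members, gene lists, motifs and rules were chosen with earlier results of these data known. Named sites were, per direction, the 10 largest changes of above-median level with both libraries on one side, the 5 strongest at least 2-fold changed, 8 genes with most such sites and 5 windows, plus the 2 smallest p of each list; not all are described. Sites chosen after values were seen are marked so. Alternatives were DESeq2 1.42.0, other library scaling, other filters, 4 libraries only, a replicate block, an assumed variation, left-out libraries and an exact binomial test of pooled counts, the last added after seeing the data.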

Additional observations from a re-analysis of the deposited data

How the results depend on the processing

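No tested result on direction could be checked between cultures, and values at low counts are limited by depth: the filter left 46436 of 52981 sites. With DESeq2, 3836 sites were higher and 1139 lower, 2840 and 731 at 2-fold; with the background floor 3543 and 19085, 2221 and 10971; with an assumed variation of 0.2, 3354 and 1514, and 1486 lower at 2-fold; with a stricter filter, 2564 and 1639 at 2-fold, from 27491 sites. The cause of these differences was not tested. Leaving out 1 library gave 3252 to 4672 lower sites and 5949 to 6415 higher, and 2278 to 2736 at least 2-fold lower. The replicate numbers did not pair the libraries (correlation of deviations -0.00449), and the replicate block gave 7792 higher and 6687 lower sites.

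Peak sharing was 42.7% of 24 h and 65.4% of 48 h peaks with 50% of both peaks shared, 52.4% and 84.8% with q under 0.001, and 69.0% and 70.1% with lists of equal length. Near chromosome ends lay 18.5% of higher and 2.56% of lower sites at 2 Mb, and 42.3% and 11.6% at 10 Mb; within 3 kb of a gene end lay 38.0% and 27.6%, against 22.6% and 19.5% within 1 kb. E-box shares of higher promoters were 63.8% with the background floor, and 2.42% and 3.02% of lower promoters with DESeq2 and the assumed variation. Of AP-1 sites, 31 were higher and 6 lower when linked within 5 kb, 32 and 37 with the floor, 26 and 2 with the assumed variation and 38 and 1 with DESeq2. Of epithelial junction sites these were 34 and 4, 38 and 56, 33 and 4, and 43 and 3. Of 95 named sites, ATF3 reversed with the floor, to -0.46, and 2 others were weaker on that scale. With the assumed variation 7 were weaker, and with DESeq2 2.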
